A study of Rangifer tarandus with 4 samples.

Results

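GP1BA, GP1BB and GP9 encode chains of the platelet receptor GPIb-IX, and SEPT5 is the septin gene that lies with GP1BB on cattle chromosome 17. They are 4 of the 21880 genes in the gene annotation deposited with a single-cell RNA study of reindeer (Rangifer tarandus) blood. The genes were taken by exact symbol, and each symbol matched 1 protein-coding gene. They were chosen by their exon counts, coding lengths, untranslated regions and shared exon bases in this annotation, so those values are given as a description without a test.

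The study profiled peripheral blood mononuclear cells on day 3 after a wound, from blood drawn at the distal antler velvet (antler, 2 libraries) and at the saphenous vein as the supply of back skin (back, 2 libraries). About 12000 cells were loaded per library, and the transcripts were read near their 3′ ends. The annotation describes cattle (Bos taurus) gene models on the assembly ARS-UCD1.2, not reindeer sequence, and its positions belong to no library. Counts per cell were not analysed here. Levels, depth and any difference between antler and back blood are therefore left out, and the label of platelet genes was not checked against expression.

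GPIb-IX is the receptor through which platelets catch von Willebrand factor on a damaged vessel wall under fast flow. GP1BA encodes the large alpha chain, which carries the ligand-binding end; GP1BB encodes the beta chain, which is joined to it by disulfide bonds; GP9 encodes the small glycoprotein IX, which the complex needs for stable display at the surface. Loss of any of these chains is known in people as Bernard-Soulier syndrome, a bleeding disorder with large platelets. SEPT5 encodes a GTP-binding septin known for its part in vesicle release in neurons and platelets, and in human a transcript that reads from SEPT5 through GP1BB is known.

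The 3 receptor chain genes had models made of coding sequence alone, whereas SEPT5 had a long 3′ untranslated region (UTR). Each of GP1BA, GP1BB and GP9 had 1 transcript with a start codon, a stop codon and no UTR base at either end. Among all 21861 protein-coding genes, 34.5% had no 3′ UTR, 28% had no UTR at either end and 62.3% had 1 transcript. Among the 16808 protein-coding genes that carry a symbol, 20.2% had no 3′ UTR and 12.7% had no UTR at either end. Models with no UTR, 1 transcript and at most 2 exons made up 15.6% of protein-coding genes and 4.26% of those with a symbol.

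GP1BA (ENSBTAG00000004909), the alpha chain gene, was found on the minus strand of chromosome 19, from 26460494 to 26462445. Its coding length was 1854 bases without the stop codon, or 618 codons, and 74.4% of protein-coding genes had a shorter one. The coding sequence was in 2 exons. The first exon of 1210 bases held 65.3% of the coding bases, and the second of 647 bases held the remaining 644 coding bases and the stop codon. The only intron, from 26461141 to 26461235, was 95 bases long and fell after 403 whole codons and 1 further base. The human gene is known for a coding sequence without introns. Of 197611 distinct introns of protein-coding genes, 5.08% were shorter than the GP1BA intron, and the median was 1398 bases. Exons filled 95.1% of the GP1BA gene model.

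GP9 (ENSBTAG00000014666), the glycoprotein IX gene, was the smallest of the 4 models and had a single exon. It ran from 59021081 to 59021623 on the plus strand of chromosome 22, with 540 coding bases, or 180 codons, and the stop codon as its last bases. A shorter coding length was found in 15.7% of protein-coding genes, and a shorter gene model in 3.26%. Single-exon models made up 12.5% of protein-coding genes, and 4.38% of those with a symbol.

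GP1BB (ENSBTAG00000039059), the beta chain gene, was found on the plus strand of chromosome 17, from 72793925 to 72799077, and was split very unevenly. Its coding length was 660 bases, or 220 codons, and 21.8% of protein-coding genes had a shorter one. Exon 1, from 72793925 to 72793979, held 55 coding bases, which are 18 codons and 1 further base. Exon 2, from 72798470 to 72799077, held the other 605 coding bases, or 91.7% of them, and the stop codon. The intron between them measured 4490 bases, longer than 77.7% of introns, so that exons filled 12.9% of the gene model. Models of 2 exons made up 9.63% of protein-coding genes.

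SEPT5 (ENSBTAG00000008320), the septin gene, ran from 72790364 to 72799264 on the same strand and enclosed GP1BB completely. It had 3 transcripts of 11 exons each, with coding lengths of 1185 bases (ENSBTAT00000079805), 1134 bases (ENSBTAT00000074509) and 1107 bases (ENSBTAT00000010956), or 395, 378 and 369 codons. The 3 transcripts had 1000 coding bases in common and covered 1330 coding bases together. They differed at both ends of the protein. At the start, ENSBTAT00000079805 and ENSBTAT00000010956 shared a start codon at 72790393 but not all of their first 54 coding bases. In ENSBTAT00000079805, 43 of them were in exon 1 and 11 in a separate exon from 72790581 to 72790591. In ENSBTAT00000010956, all 54 were in 1 exon that ended at 72790446. The third transcript, ENSBTAT00000074509, began at another start codon, at 72793778, with 81 coding bases in its first exon. At the end, ENSBTAT00000079805 kept as exon a stretch of 131 bases that the other two spliced out as an intron, and its stop codon ended at 72797044 instead of 72797097.

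The untranslated parts of the SEPT5 transcripts differed more than the coding parts. The 3′ UTR measured 2220 bases in ENSBTAT00000079805 and 2167 bases in ENSBTAT00000074509, which is 64.6% and 57.6% of their exon bases, and both ended at 72799264. ENSBTAT00000010956 had no UTR and stopped at its stop codon, like the receptor chain models. The 5′ UTR measured 29 bases in ENSBTAT00000079805 and 457 bases in ENSBTAT00000074509. A 3′ UTR longer than the longest of SEPT5 was annotated for 4.82% of protein-coding genes. The plot of transcript make-up sets these parts beside those of the receptor chain genes.

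**Figure D1:**
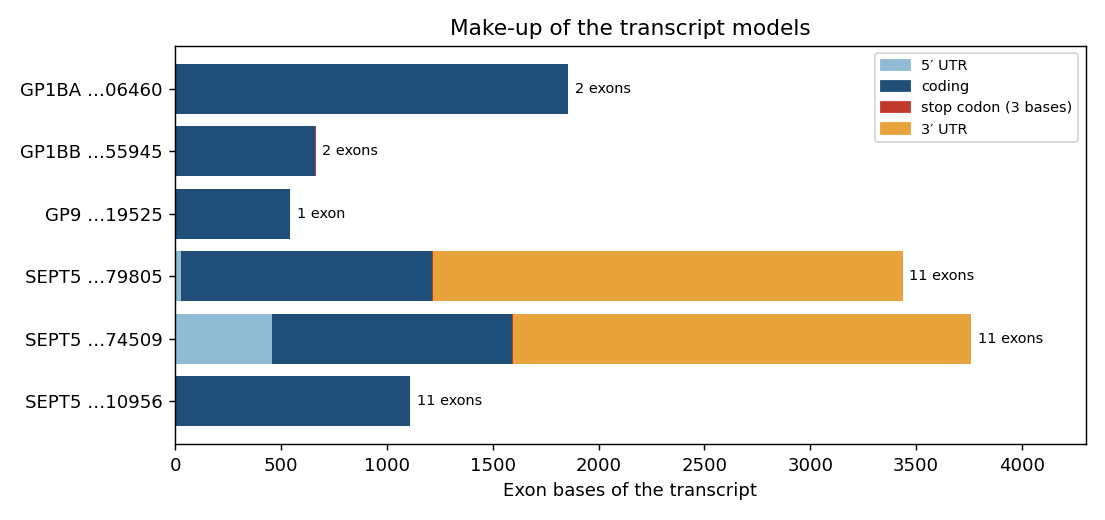
Exon bases of each transcript model (x axis, bases), 1 bar per transcript of GP1BA, GP1BB, GP9 and SEPT5, named by the last digits of its identifier and coloured by 5′ UTR, coding sequence, stop codon and 3′ UTR. The 3 receptor chain transcripts and the SEPT5 transcript of 1107 coding bases hold no UTR, while the other SEPT5 transcripts end in 3′ UTRs of 2220 and 2167 bases.

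GP1BB and SEPT5 shared 608 exon bases on the same strand, and all of them were exon 2 of GP1BB. That is 91.7% of the 663 exon bases of GP1BB and 15.3% of the 3986 exon bases of SEPT5. At least 1 exon base was shared with another gene on the same strand in 1.75% of protein-coding genes (383 of 21861), and at least 50% of a gene's exon bases were shared with 1 such gene in 0.197% (43 genes). GP1BA and GP9 shared no exon base with another gene on either strand.

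The shared bases depended on the SEPT5 transcript. Against ENSBTAT00000079805 and ENSBTAT00000074509, GP1BB shared 608 bases, and against ENSBTAT00000010956, which ends 1980 bases before the end of GP1BB, it shared 0 bases. In the transcripts with a 3′ UTR, the 605 coding bases and the stop codon of GP1BB exon 2 lay wholly within that UTR, of which exon 2 took 27.4% and 28.1%. No base was coding in both genes. Thus the same stretch was annotated as protein-coding in GP1BB and as untranslated in SEPT5. A stop codon within the 3′ UTR of another gene on the same strand was found in 0.101% of protein-coding genes (22 genes), and at least 50% of the coding bases within such a 3′ UTR in 0.0869% (19 genes).

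From the SEPT5 stop codon to the first base of GP1BB exon 2 the 3′ UTR ran for 1425 bases in ENSBTAT00000079805 and 1372 bases in ENSBTAT00000074509. Past the GP1BB stop codon it went on for 187 bases. GP1BB itself has no 3′ UTR, so these 187 bases after its stop codon were annotated to SEPT5 alone.

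Exon 1 of GP1BB was not shared, and it placed the 2 genes in each other's introns. Its 55 bases lay in an intron of every SEPT5 transcript. They began 3561 bases after the start of the SEPT5 gene model, and a gap of 66 bases separated them from the first exon of ENSBTAT00000074509. The GP1BB intron in turn contained 8, 9 and 10 whole exons of ENSBTAT00000079805, ENSBTAT00000074509 and ENSBTAT00000010956, with 95.4%, 92.9% and 95.1% of their coding bases. Exons of GP1BB therefore stood before and after nearly all of the SEPT5 coding sequence, as the exon map shows. Among protein-coding genes, 0.412% (90 genes) had a coding exon of a same-strand gene within an intron while also sharing exon bases with that gene.

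**Figure D2:**
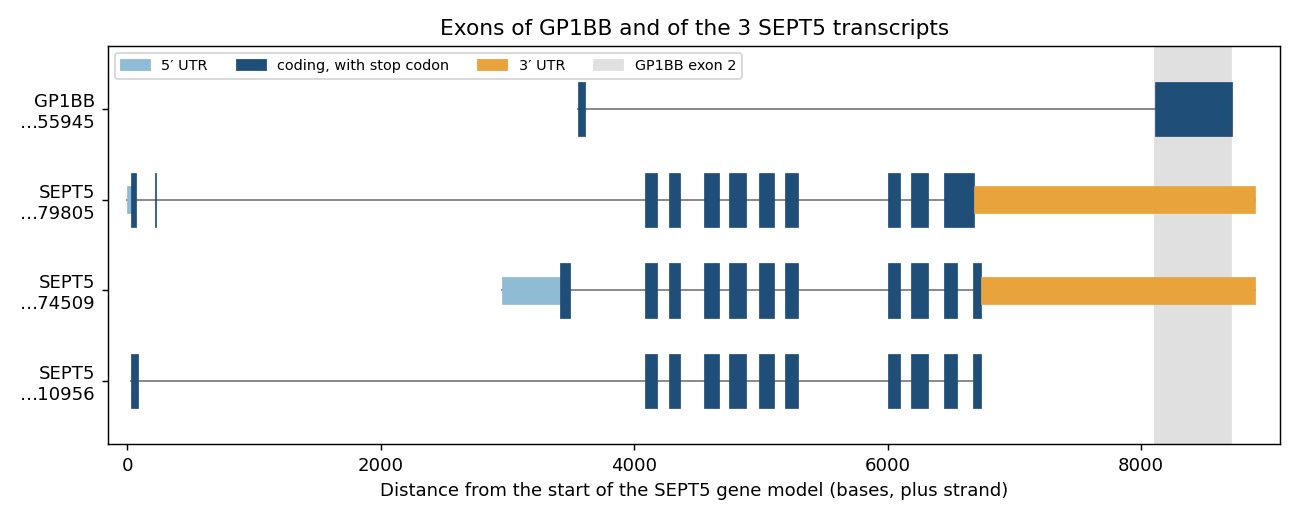
Exons of GP1BB and of the 3 SEPT5 transcripts against the distance from the start of the SEPT5 gene model (x axis, bases), with coding sequence as tall boxes, UTRs as low boxes, introns as lines and the grey band marking GP1BB exon 2. The band of 608 bases lies in the 3′ UTR of the upper SEPT5 transcripts and past the end of the transcript of 1107 coding bases.

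Since the libraries were read near 3′ ends, the shared bases were also counted back from the end of each transcript. For GP1BB, the last 100, 200, 300 and 500 exon bases were all shared with SEPT5, and the 55 bases that were not shared stood at its 5′ end. For the SEPT5 transcripts with a 3′ UTR the count differed: 0 of the last 100 exon bases were shared with GP1BB, 13 of the last 200 bases, 113 of the last 300 bases, 313 of the last 500 bases and 608 of the last 1000 bases. The SEPT5 transcript ENSBTAT00000010956 shared 0 of its last 1000 bases. Cell Ranger, which the submitters' processing notes name, is known to count a read only where it fits the exons of a single gene. How reads in the shared stretch were counted was not tested.

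**Figure D3:**
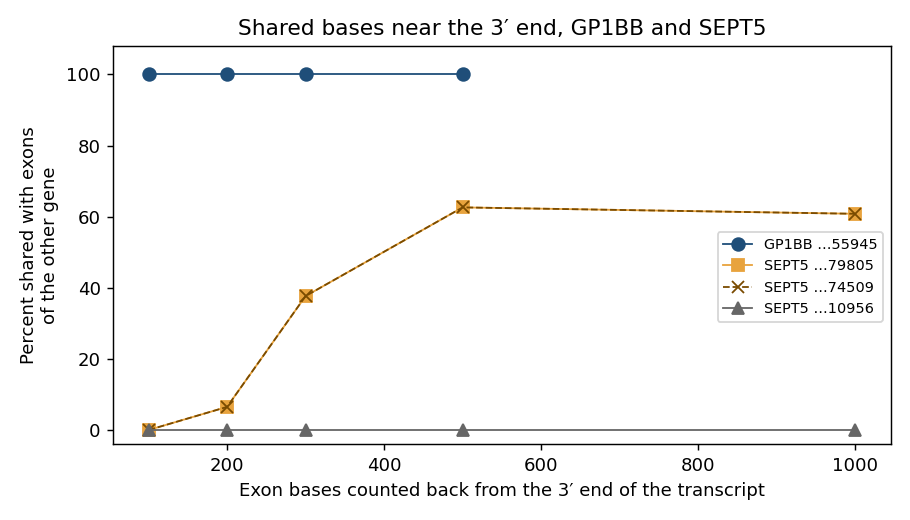
Percent of exon bases shared with exons of the other gene (y axis) among the last 100 to 1000 exon bases of a transcript (x axis), for GP1BB and the 3 SEPT5 transcripts; GP1BB has no point at 1000 because it holds 663 bases. GP1BB stays at 100% up to 500 bases, the SEPT5 transcripts with a 3′ UTR lie on each other and reach 62.6% at 500 bases, and the third stays at 0%.

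Named gene pairs most like GP1BB and SEPT5 were taken by the shared percent of the smaller gene. There were 130 same-strand pairs of named protein-coding genes that shared exon bases. Their median was 17.9% of the smaller gene (quartiles 8.04% and 29.7%) and 265.5 shared bases. GP1BB stood at 91.7%, with 2 pairs above it, and 18 pairs shared more than its 608 bases. The 5 nearest pairs were TEN1 with CDK3 (84.9%), HSD3B7 with SETD1A (100%), TCAP with STARD3 (100%), PRIM1 with NACA (81.9%) and MRPL24 with HDGF (81.5%). HSD3B7, an enzyme of bile acid synthesis, TCAP, a titin-binding protein of muscle, and MRPL24, of the mitochondrial ribosome, had all their coding bases within the partner's 3′ UTR. TEN1, a telomere-capping protein, and PRIM1, a DNA primase subunit, had 0 coding bases there. Unlike GP1BB, each of these 5 smaller genes had a 3′ UTR of its own, from 104 bases in MRPL24 to 517 bases in HSD3B7.

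**Figure D4:**
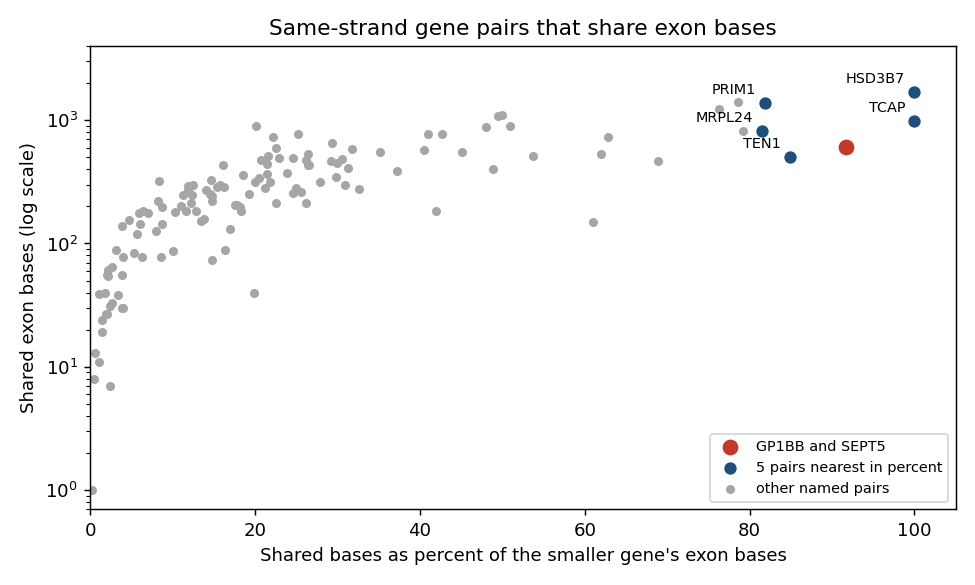
Same-strand pairs of named genes that share exon bases, 1 point per pair, with the shared bases as a percent of the smaller gene's exon bases (x axis) and the number of shared exon bases (y axis, log scale). GP1BB with SEPT5 stands at 91.7% and 608 bases among the 5 labelled pairs nearest in percent, while the median pair shares 17.9%.

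GP1BA and GP9 had open sequence on their own strand past the stop codon, within the limits of this annotation. The next gene on the strand of GP1BA was RNF167, a ubiquitin ligase gene, 4939 bases downstream, and on the other strand SLC25A11, a mitochondrial carrier gene, ended 2238 bases away. Downstream of GP9 the next gene on its strand was COPG1, a coat protein gene of vesicles, 110073 bases away, and RAB43, a GTPase gene on the other strand, ended 2096 bases away. The median distance to the next gene on the same strand was 48648 bases over 21676 protein-coding genes. Upstream of GP1BA the nearest gene was CHRNE, an acetylcholine receptor subunit gene, at 21850 bases, with C19H17orf107 at 24975 bases on the GP1BA strand. Upstream of GP9 it was EFCC1, at 11902 bases.

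Around SEPT5 and GP1BB, the genes within 100000 bases included several known as their neighbours on human chromosome 22. Upstream lay HIRA, a histone chaperone gene, MRPL40, of the mitochondrial ribosome, the unnamed gene ENSBTAG00000048885, UFD1, of protein degradation, CDC45, of DNA replication, and CLDN5, a tight junction gene of endothelium. Downstream lay TBX1, a developmental transcription factor gene, GNB1L and TXNRD2, a mitochondrial thioredoxin reductase gene. The nearest of these were CLDN5, 54532 bases upstream of SEPT5 on the other strand, CDC45, 57984 bases upstream on the same strand, and TBX1, 24405 bases downstream on the same strand. None of these 9 neighbours shared an exon base with another gene on its strand, against 1.75% of all protein-coding genes. Of the 11 genes listed for this human region, 10 were matched and RTL10 was not. Within that list of 10 matched genes, TBX1 and TXNRD2 had no 3′ UTR, CLDN5 had a single exon and the shortest coding length (654 bases), and HIRA had the longest (3390 bases). MRPL40, a neighbour outside the list, had a coding length of 618 bases and no 3′ UTR.

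Other genes of platelets, megakaryocytes and the septin family were read from 8 lists, in which 77 of 82 genes were matched. Of these 77 genes, 9 (11.7%) had no 3′ UTR, against 34.5% of all protein-coding genes and 20.2% of those with a symbol. No UTR at either end was annotated for 5 of the 77 genes, against 28% and 12.7%. A single exon was found in 4 of the 77, against 12.5% and 4.38%. Exon bases were shared on the same strand by 0 of the 77, against 1.75% of all protein-coding genes. Read on 1 transcript per gene, that of the longest coding sequence, 23.4% of the listed genes had no 3′ UTR, against 40.8% of all protein-coding genes. Lists matched by symbol hold genes with a symbol only, and these differences were not tested. The plot of coding length against 3′ UTR places the 4 genes among them.

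GP5, which encodes glycoprotein V, the further subunit of the GPIb-IX-V complex, resembled the other chains in its model. It stood on the plus strand of chromosome 1, from 73132670 to 73134289, with 1 exon, 1617 coding bases, or 539 codons, and no UTR. All 4 subunit genes, on 4 chromosomes, thus had 1 transcript, no UTR and 1 or 2 exons. Such models made up 15.6% of protein-coding genes and 4.26% of those with a symbol. GP1BA, GP1BB and GP9 were chosen with these values known, so only GP5 was added here. Among the 11 matched adhesion receptors, ITGA2, a collagen receptor chain, and PECAM1, an adhesion molecule of platelets and endothelium, also had no 3′ UTR. The longest coding length was that of ITGA2 with 3537 bases and the shortest that of CD9, a tetraspanin, with 678 bases. GP6, the symbol of a collagen receptor, was not matched.

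Among the 10 agonist receptors, all matched, the adrenaline receptor gene ADRA2A had 1 exon, 1404 coding bases and no UTR. The ADP receptor gene P2RY1 also had 1 exon but a 3′ UTR of 158 bases. The shortest coding length of this list, 1017 bases, was that of P2RY12, another ADP receptor. Of 13 genes for proteins behind GPIb inside the platelet, all matched, the phospholipase gene PLCG2 and the adaptor gene LCP2 had no UTR. FLNA, the filamin that ties the GPIb alpha chain to actin, had the longest coding length with 7941 bases and a 3′ UTR of 987 bases, and FCER1G, the Fc receptor gamma chain, had the shortest with 255 bases.

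The 8 genes for ligands of GPIb were all matched, and ITGAM, the alpha chain of the leukocyte integrin Mac-1, had no 3′ UTR. VWF, the main ligand, had the longest coding length with 8433 bases and a 3′ UTR of 126 bases, and F12, coagulation factor XII, the shortest with 1809 bases. Of 8 granule genes, 5 were matched and all had a 3′ UTR, from SRGN, a granule proteoglycan gene with 450 coding bases, to MMRN1, the multimerin gene, with 3651 bases. PF4, PPBP and NBEAL2 were not matched by symbol. The 9 megakaryocyte transcription factors all had a 3′ UTR, with coding lengths from 984 bases in TAL1 to 2958 bases in ZFPM1.

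SEPT5 fell inside the range of the other septins. All 12 were matched and all had a 3′ UTR, from 154 bases in SEPT12 to 3038 bases in SEPT6, and 3 of them had a longer one than SEPT5. Their longest coding lengths ran from 1071 bases in SEPT3 to 1755 bases in SEPT9, and 8 of 12 were longer than that of SEPT5. They had 9 to 15 exon blocks (stretches of exon merged over transcripts) and SEPT5 had 12. None of the 12 shared exon bases on the same strand, against 1.75% of all protein-coding genes, and none lay on the chromosome of SEPT5. Read on the longest coding transcript alone, 4 of the 12 had no 3′ UTR, whereas SEPT5 kept its 2220 bases.

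**Figure D5:**
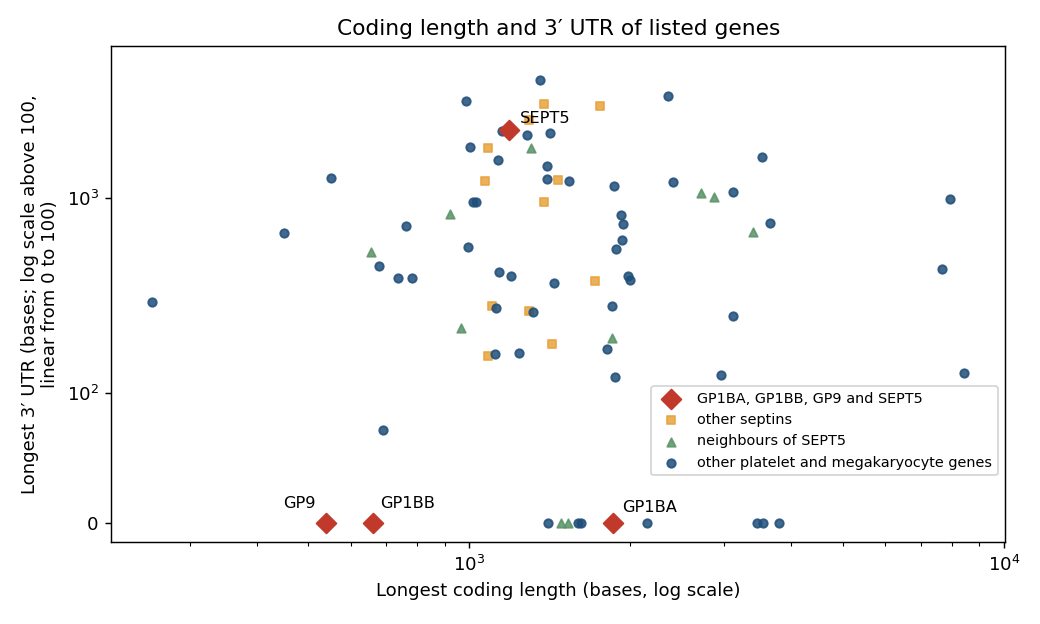
Longest coding length (x axis, bases, log scale) against longest 3′ UTR (y axis, bases, log scale above 100 bases and linear below) for the 4 genes (diamonds), the other septins, the neighbours of SEPT5 and the other listed platelet and megakaryocyte genes, 1 point per gene. GP1BA, GP1BB and GP9 lie on the line of 0 bases, and SEPT5 lies at 1185 coding bases and 2220 bases of 3′ UTR, among the other septins.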

How the data were processed

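The only deposited file used was the gene annotation, a table of 1020224 features that is one of cattle assembly ARS-UCD1.2, per the file headers. Its start and end positions, in bases from 1, were deposited by the authors as they stand. The submitters' processing notes list the tools STAR, Cell Ranger 3 and Seurat with no step beside them. How reindeer reads were set against cattle gene models is not stated in those notes.

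Exons were merged over the transcripts of a gene into blocks; coding length and UTRs are the longest over transcripts, and coding length leaves out the stop codon. A gene had a 3′ UTR from 1 annotated base on. Shared bases are exon bases covered by 2 genes on the same strand. Members, lists and the choice of measures were made with earlier results of these data known, so no test was run. The genes named are the 4 members, their nearest neighbours, all genes within 100000 bases of SEPT5 and GP1BB, the 5 pairs nearest to GP1BB in shared percent and, per list, genes not matched, without a 3′ UTR, with 1 exon or with the longest or shortest coding length. SEPT6 and SEPT12, with the longest and shortest 3′ UTR of the other septins, were named after their values were seen.

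On a simulated annotation of 1000 genes with 2 transcripts each, 3′ UTR, coding length and exon blocks came out exactly for 1000 genes, and shared bases for 322 of 322 pairs. The simulated 3′ UTRs were short, and the transcripts of a gene shared their start and stop codons. No simulated exon lay whole within another gene's intron, and coding bases within another gene's 3′ UTR were not measured there. Python 3.11.15, NumPy 2.4.6, pandas 2.3.3, SciPy 1.17.1 and matplotlib 3.10.9 were used. No genome or protein sequence was used here. Some genes that the naming rule takes are not reported here.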

Additional observations from a re-analysis of the deposited data

How the results depend on the processing

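The 608 bases that GP1BB shares with SEPT5 held against 2 SEPT5 transcripts, became 0 against ENSBTAT00000010956, 605 when only coding bases of GP1BB were counted and 0 when coding bases of both genes were required. Their share was 91.7% of GP1BB by exon or by coding bases, and 15.3% of SEPT5. The 3 genes without a 3′ UTR and the single-exon gene among the 4 stayed the same number under every alternative tried. For GP1BA, GP1BB and GP9 no other outcome was possible. Each has 1 transcript, no exon base past its stop codon and no intron under 20 bases, the gap length closed. With the stop codon counted, coding lengths were 1857 bases in GP1BA, 663 in GP1BB, 543 in GP9 and 1188 in SEPT5; the shortest SEPT5 transcript gave 1107 bases. The percent of protein-coding genes with no 3′ UTR, 34.5%, was 20.2% among genes with a symbol, 36.6% when at least 50 bases were required and 40.8% on the transcript with the longest coding sequence, and among listed genes the last reading gave 23.4% instead of 11.7%. Single-exon genes were 4.38% of genes with a symbol. Genes sharing exon bases were 8.11% with either strand counted and 1.37% with at least 100 bases. No paired analysis was possible because no result came from a test on samples. All values describe cattle gene models; reindeer models were not analysed here.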

Other observations

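Among the 130 same-strand pairs of named genes, 8 had at least 50% of the smaller gene's coding bases within the partner's 3′ UTR; these pairs were picked after the values were seen. Beside GP1BB with SEPT5 they included HSD3B7 with SETD1A, TCAP with STARD3, MRPL24 with HDGF, a pair of genes both carrying the symbol GNAS, OVCA2 with DPH1 and TMEM223 with NXF1. GP1BB was the only smaller gene of the 8 whose intron held a coding exon of its partner. Over all 130 pairs this was found in 10, and coding exons lay in each other's introns in 3 pairs, that of GP1BB included.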
